A study of Homo sapiens with 6 samples.

Results

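The genes of prostaglandin synthesis, breakdown and reception were followed in the established endometriosis epithelial line 12Z after siRNA knockdown of the long noncoding RNA LINC01133. The group was chosen by name and holds 10 of the 60660 genes in the count files, namely the cyclooxygenases PTGS1 and PTGS2, the prostaglandin E synthases PTGES, PTGES2 and PTGES3, the prostaglandin I synthase PTGIS, the receptors PTGER2, PTGER4 and PTGFR, and the degrading enzyme HPGD. All 10 were found by Ensembl identifier. RNA-sequencing covered 3 libraries of cells that received a non-targeting control siRNA and 3 libraries of cells that received siRNA LINC01133a at 10 nM, each taken 72 h after transfection. All libraries come from a single cell line, and the knockdown was made with a single siRNA, so effects of LINC01133 loss and of this oligo on other RNAs cannot be told apart.

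Prostaglandins are made from arachidonic acid that phospholipases release from membranes. The cyclooxygenases turn it into prostaglandin H2, and terminal synthases convert this unstable intermediate to prostaglandin E2, prostacyclin and other products, which leave the cell and act on G protein-coupled receptors at the surface of the same or neighbouring cells. In endometriosis, prostaglandin E2 is known for its part in pain, inflammation and local oestrogen production, and cyclooxygenase inhibitors are widely used against the pain of the disease.

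The RNA of PTGES and PTGIS fell in knockdown cells, to 28.4% and 42.8% of the control level. PTGES2 and PTGES3 were lower and PTGFR higher without reaching the fold change cutoff. Both cyclooxygenases and the E2 receptor genes PTGER2 and PTGER4 were at low counts. PTGES, the inducible terminal enzyme of prostaglandin E2 synthesis, thus had the largest change among the prostaglandin genes tested. The libraries are bulk samples, in which fewer cells of a type and less RNA per cell cannot be told apart.

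The sequences on which these comparisons bear are those of the siRNA, of its partial matches in the group and of the promoter of PTGES. The guide strand of siRNA LINC01133a is shown 5′ to 3′ with its seed, positions 2 to 8, in capitals, because a short interfering RNA can also lower RNAs whose 3′ UTR pairs with the seed.
LINC01133a guide: uCCAUUCUcagguaacuucaa
The 3′ UTR of the canonical GENCODE v44 transcript of each gene was searched for the 7 bases AGAATGG that pair with the seed. A match was found in 2 of the 10 genes and is in capitals in the following stretches, PTGS1 at chr9:122393849-122393855 and PTGFR at chr1:78537268-78537274 of GRCh38, both on the plus strand.
PTGS1: gggtcaaagacAGAATGGtggagtgtagcc
PTGFR: caatcctatctAGAATGGgcccattcttgt
The 3′ UTRs of PTGES (1262 bases) and PTGIS (4046 bases), the genes that fell, hold no such match. Of the 12538 tested genes with a 3′ UTR, 17.1% hold the 7-base match, and 5.77% hold the 8-base form AGAATGGA, which none of the 10 genes has. A match is only a run of letters and does not show that the siRNA acts on the gene. Shorter matches, other transcripts, coding sequences and the sense strand of the siRNA were not searched. Whether the siRNA acts directly on PTGES or PTGIS was not tested.

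The 250 bases before the start site of PTGES, at chr9:129753043-129753292 on the minus strand of GRCh38.p14 (RefSeq), are shown because the RNA of EGR1, a zinc finger factor known to induce PTGES, was also measured and rose (given with the inducers). The capitals mark the EGR1 motif GCGTGGGCG, which starts 82 bases before the start site.
PTGES promoter: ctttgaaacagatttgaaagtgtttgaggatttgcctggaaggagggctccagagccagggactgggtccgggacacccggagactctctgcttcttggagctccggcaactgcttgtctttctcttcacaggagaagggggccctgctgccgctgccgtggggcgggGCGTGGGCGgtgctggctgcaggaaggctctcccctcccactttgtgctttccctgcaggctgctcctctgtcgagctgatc
On either strand, this motif was found in 0.72% of 35116 such windows in the RefSeq table. Among the 13 windows of the 9 prostaglandin genes in that table, it was also found at 1 of the start sites of PTGES2, 147 bases before it. PTGIS has no entry in that table, so its promoter was not searched for any motif. The PTGES window also holds the GC box GGGCGG at 2 places, 1 of which overlaps the EGR1 letters. At least 1 GC box was found in 42.6% of all windows. The short cAMP response element TGACG, present in 21.2% of windows, was found for PTGS2, PTGES3, PTGER2 and 1 start site of HPGD and not for PTGES.

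The libraries held 27742562 to 37551194 counts on genes. The normalized count of LINC01133 was 813 to 837 in the control and 130 to 138 in the knockdown libraries, which checks the labels. The control library 2 stood apart from the other control libraries, with a chi-square per gene of 11.8 and 12.8 against them, while this value was between 2.21 and 3.73 for all other pairs of a group. The log2 fold changes of the 10 prostaglandin genes, the differences of their ratios and the counts of DE genes were therefore also computed without each library in turn. The keratins of an epithelial cell were abundant (KRT8 at 104600 normalized counts in control cells), but EPCAM was at 13.6. RNAs of stromal cells were abundant too, with 101500 to 116600 normalized counts for the 4 stromal markers together in control and 98080 to 101300 in knockdown libraries. Of the 4 stromal markers, 3 were lower at an adjusted p under 0.05 by edgeR, and 0 passed the fold change cutoff. Of all genes, 48.3% reached this adjusted p in either direction. The epithelial list had 4 of 6 genes lower past the cutoffs, beside 6.43% of all genes tested. These were KRT7 (-0.59 on the log2 scale), KRT8 (-0.63), KRT19 (-0.88) and CDH1 (-2.02). In the paper's follow-up measurements CDH1 was lower, while KRT7 and KRT19 were not significantly changed. The epithelial list summed to between 200000 and 210800 normalized counts in control and between 127700 and 133700 in knockdown libraries. Its part in the results was not tested. Of the endothelial list, CDH5 rose and PECAM1 had at most 2.42 normalized counts on average, and the list summed to 79.8 to 91.8 in control and 178 to 220 in knockdown libraries. Of the leukocyte list, CD14 fell and CD68 was near 0, and it summed to 1617 to 1823 and to 846 to 907.

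Counts were normalized by the TMM method of edgeR and are given as normalized counts, scaled to the mean library. A gene was called differentially expressed (DE) where its fold change, up or down, exceeded 1.5 and its adjusted p was under 0.05, the cutoffs of the study. The p came from edgeR's quasi-likelihood test and was adjusted by Benjamini-Hochberg over all genes tested. The filter on low counts kept 15155 genes and 8 of the 10 prostaglandin genes, leaving out PTGER4 and HPGD. Of the genes tested, 11.7% were DE, 6.43% lower and 5.3% higher in knockdown cells, and of the 8 prostaglandin genes 2 were lower and 0 higher, as with DESeq2. At an unadjusted p under 0.05 in edgeR, which 55% of all genes reached, 1 of the 8 was higher and 5 were lower. Scaling by library size alone moved the share of higher genes among all DE genes from 45.2% to 55.9%. An adjusted p under 0.05 alone was reached by 48.3% of all genes and by 5 of the 8. In 57.3% of all genes, and likewise in 5 of the 8, the normalized counts of the groups did not overlap. The median log2 fold change was -0.27 over the 8 genes and 0.003 over all genes tested.

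**Figure D1:**
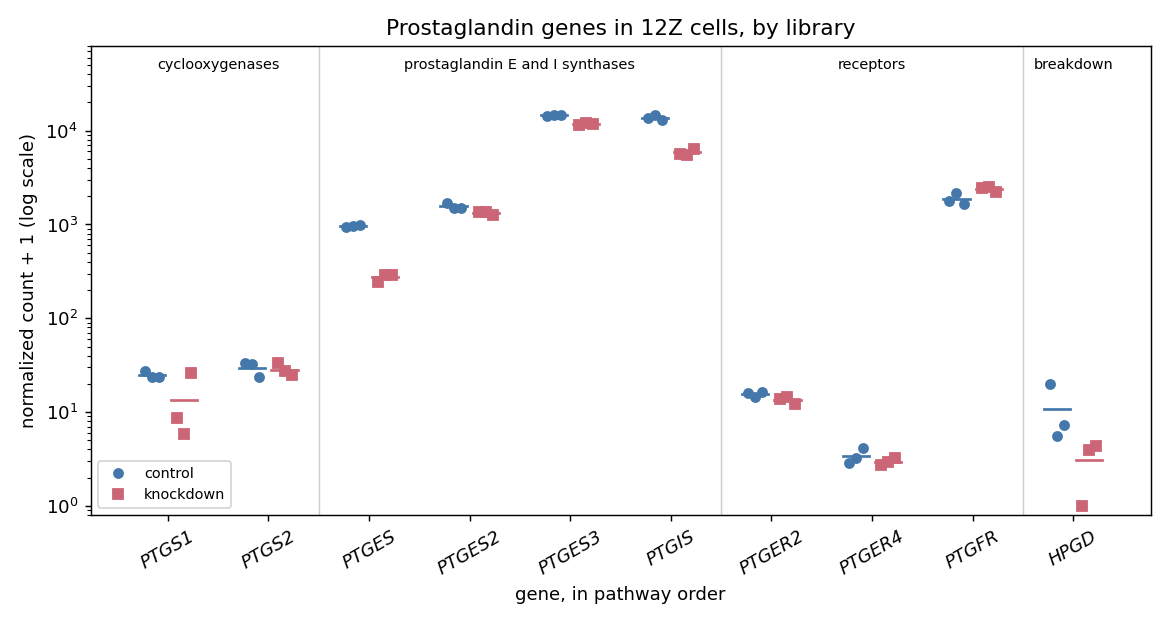
Normalized count plus 1 (log axis) of each prostaglandin gene in every library, in pathway order, with control libraries as circles, knockdown libraries as squares and group means as lines. PTGES lies at 946 to 992 in control and 243 to 290 in knockdown libraries, whereas PTGS1, PTGS2, PTGER2, PTGER4 and HPGD stay under 35 in all libraries.

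The cyclooxygenases catalyse the committed step. PTGS1, the constitutive form, lies at chr9:122370530-122395703 on the plus strand and had 26.5, 22.5 and 22.8 normalized counts in control and 7.63, 4.86 and 25.0 in knockdown libraries. Knockdown libraries 1 and 2 lay below all control libraries, while knockdown library 3 lay among them, so the groups overlapped. The log2 fold change was -1.03 with a standard error (SE) of 0.42 and a 95% interval from -1.95 to -0.12, and the adjusted p of edgeR's quasi-likelihood test was 0.060. Without knockdown library 3 it was -1.90 (adjusted p = 0.0011 by edgeR) and without knockdown library 2 it was -0.65 (adjusted p = 0.23), so the call rested on single libraries. PTGS1 passed the filter largely through its control libraries, and it holds a seed match of the siRNA, whose part in this value was not tested.

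PTGS2, the inducible cyclooxygenase, lies at chr1:186671791-186680922 on the minus strand. It had 32.2, 31.5 and 22.8 normalized counts in control and 32.2, 26.2 and 23.8 in knockdown libraries, and the groups overlapped over nearly their whole range. The log2 fold change was -0.057 (95% interval -0.55 to 0.44, adjusted p = 0.86 by edgeR), an interval that lies within the fold change cutoff of 1.5 in either direction. The antisense RNA PACERR shares 219 exon bases with PTGS2 on the other strand, and it had at most 1 count in any library. At 21 to 38 counts per library, smaller changes of PTGS2 were not detectable at this depth.

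Prostaglandin E2 is formed from prostaglandin H2 by the E synthases, which share a name and a reaction but not a localisation. PTGES encodes the membrane-bound, glutathione-dependent enzyme that is induced together with PTGS2 in inflammation. It lies at chr9:129738331-129753042 on the minus strand, and no other annotated gene shares its exons. Its normalized count was 946, 968 and 992 in control and 243, 290 and 290 in knockdown libraries. The groups were far apart, with the lowest control library at more than 3 times the highest knockdown library. The log2 fold change was -1.82 ± 0.071 (SE, 95% interval -1.98 to -1.67, adjusted p = 8.9e-10 by edgeR's quasi-likelihood test), with 3 of 3 knockdown libraries below all controls. Of the 15155 genes tested, 48 had a log2 fold change at least as low. Leaving out single libraries gave values from -1.87 to -1.73.

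PTGES2, a membrane-associated E synthase found in many tissues, lies at chr9:128120693-128128462 on the minus strand. It had 1690, 1488 and 1494 normalized counts in control and 1346, 1358 and 1275 in knockdown libraries. The knockdown libraries lay below all controls, but by little, and the log2 fold change was -0.23 ± 0.054 (SE, adjusted p = 0.0031 by edgeR), under the fold change cutoff. PTGES3, at chr12:56663341-56688408 on the minus strand, encodes p23, a cochaperone of HSP90 that also has E synthase activity in the cytosol. Its normalized count was 14410, 14553 and 14667 in control and 11610, 12120 and 11661 in knockdown libraries. The log2 fold change was -0.30 ± 0.034 (SE, adjusted p = 1.0e-05 by edgeR), again without overlap and under the cutoff. Only reads that map to a single place were counted, so PTGES3 can be counted incompletely because of its processed pseudogenes, of which PTGES3P1 had 21 to 40 counts per library and the other 4 at most 13.

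The E synthases thus changed unequally. Per kilobase of annotated exon, PTGES made up 10.1% ± 0.17 (SD, n = 3) of the summed level of the E synthases in control and 3.79% ± 0.33 in knockdown libraries. PTGES3 made up 84.8% ± 0.25 in control and 90.5% ± 0.16 in knockdown libraries, and PTGES2 went from 5.07% ± 0.40 to 5.69% ± 0.18. The shares depend on the length used, which the SD does not cover. Per kilobase of the longest annotated transcript, PTGES2 was at 13.9 in control and 11.8 in knockdown cells, instead of 7.91 and 6.74. PTGES changed little with the length (16.0 and 4.54, instead of 15.8 and 4.49). These are shares of RNA and say nothing about the share of enzyme activity.

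PTGIS encodes prostacyclin synthase, a cytochrome P450 enzyme that forms prostaglandin I2 and is best known from blood vessel walls. It lies at chr20:49503874-49568137 on the minus strand and was among the most abundant RNAs of these cells, above 97.8% of the genes tested in control cells by normalized count. It had 13684, 14645 and 12837 normalized counts in control and 5645, 5557 and 6427 in knockdown libraries. All knockdown libraries lay below all controls, and the lowest control library was at about 2 times the highest knockdown library. The log2 fold change was -1.22 ± 0.059 (SE, 95% interval -1.35 to -1.10, adjusted p = 4.8e-09 by edgeR's quasi-likelihood test). Leaving out single libraries gave values from -1.29 to -1.18.

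**Figure D2:**
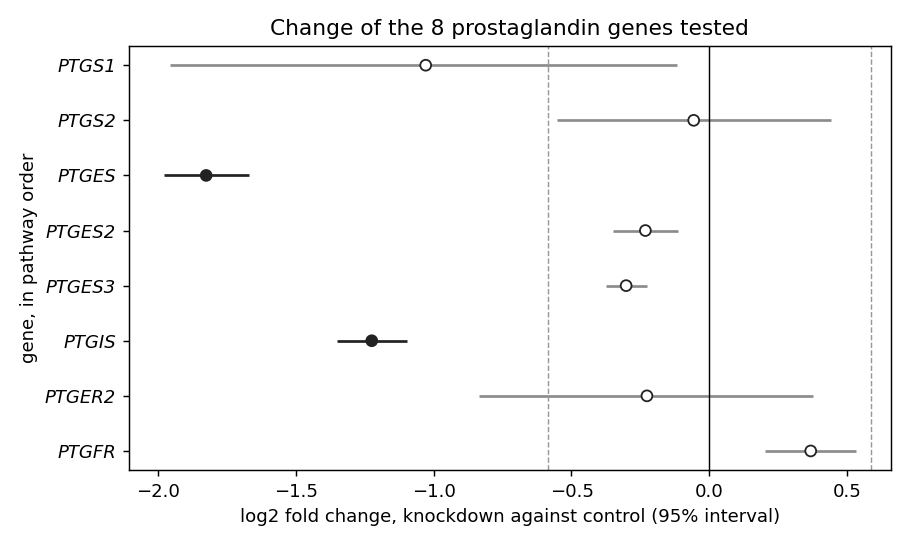
Log2 fold change of knockdown against control (horizontal axis) with its 95% interval for the 8 prostaglandin genes that passed the filter, from edgeR, in pathway order. Filled points are DE, and dashed lines mark the fold change cutoff of 1.5. PTGES (-1.82) and PTGIS (-1.22) lie beyond the cutoff with narrow intervals, whereas the interval of PTGS1 spans from -1.95 to -0.12.

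The receptors for prostaglandin E2 that raise cyclic AMP were hardly detected. PTGER2, which encodes EP2, lies at chr14:52314305-52328598 on the plus strand and had 15.2, 13.5 and 15.5 normalized counts in control and 12.7, 13.6 and 11.4 in knockdown libraries. The groups overlapped, and the log2 fold change of -0.23 had a 95% interval from -0.84 to 0.38 (adjusted p = 0.57 by edgeR), which does not exclude a change past the cutoff. PTGER4, which encodes EP4, lies at chr5:40679915-40693735 on the plus strand and had 2, 2 and 3 counts in control and 2, 2 and 2 in knockdown libraries. It did not pass the filter, and at 2 or 3 counts no difference was detectable.

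PTGFR encodes FP, the receptor for prostaglandin F2α, which signals through calcium and drives contraction of the uterus. It lies at chr1:78303884-78540701 on the plus strand and had at least 1610 counts in every library, while PTGER2 had at most 16. Its normalized count was 1767, 2152 and 1668 in control and 2470, 2477 and 2242 in knockdown libraries. The knockdown libraries were all above the controls, although control library 2 came close to knockdown library 3. The log2 fold change was 0.37 ± 0.076 (SE, 95% interval 0.20 to 0.53, adjusted p = 0.0013 by edgeR), under the cutoff. Without control library 2, the library that stood apart, its value was the highest of those with a library left out, 0.48.

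HPGD encodes 15-hydroxyprostaglandin dehydrogenase, which inactivates prostaglandin E2 and F2α. It lies at chr4:174490175-174523154 on the minus strand. It had 20, 4 and 6 counts in control and 0, 3 and 3 in knockdown libraries and did not pass the filter. Control library 1 held most of these counts. Fitted without a filter, the log2 fold change was -2.32 (95% interval -3.63 to -1.14, adjusted p = 0.0010 by edgeR over 29200 genes), and without control library 1 it was -1.39 with an adjusted p of 0.30, so this call rested on a single library.

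Levels of different genes were compared per kilobase of annotated exon, after scaling to library size (CPM per kilobase). In control cells the order was PTGES3 (132), PTGIS (76.1), PTGES (15.8), PTGFR (9.98) and PTGES2 (7.91), and the ranges of neighbours in this order did not overlap over the 3 libraries. PTGER2 (0.18), PTGS2 (0.16) and PTGS1 (0.13) followed, and in control cells PTGS2 overlapped in range with each of these neighbours. HPGD (0.055) and PTGER4 (0.021) came last and overlapped with each other. In knockdown cells PTGES (4.49) stood behind PTGFR (12.9) and PTGES2 (6.74), whereas PTGES3 (107) and PTGIS (32.6) kept the first places. The places of PTGFR and PTGES2 in control cells depend on the length used. With the longest annotated transcript as length, PTGES2 (13.9) stood above PTGFR (10.6).

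To compare steps of the pathway free of scaling between libraries, the log2 ratio of the counts of a gene pair was taken within each library. With 3 libraries against 3, the exact permutation test (two-sided) cannot give a p below 0.10, which is 0.17 after Benjamini-Hochberg adjustment over the 5 pairs. The ratio of PTGES to PTGES2 was -0.84, -0.62 and -0.59 in control and -2.46, -2.22 and -2.13 in knockdown libraries. This is a difference of -1.59 (exact permutation p = 0.10), the smallest p the test allows, with no overlap. The ratio of PTGES to PTGES3 differed by -1.51 and that of PTGES to PTGIS by -0.59, each with p = 0.10 in the exact permutation test and no overlap. PTGES was thus lower in relation to both other E synthases and to PTGIS in 3 of 3 knockdown libraries.

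For the cyclooxygenases, the ratio of PTGS2 to PTGS1 was 0.26, 0.45 and 0 in control and 1.83, 2.04 and -0.062 in knockdown libraries, with overlap through knockdown library 3 (difference 1.03, exact permutation p = 0.40, adjusted p = 0.50). The ratio of PTGES to HPGD differed by -0.35 (exact permutation p = 0.80, also 0.80 after adjustment), and its sign turned to 0.39 with a smaller prior count, since HPGD was near 0. The pair PTGER4 and PTGER2 was left out because PTGER4 was under 10 counts in every library.

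**Figure D3:**
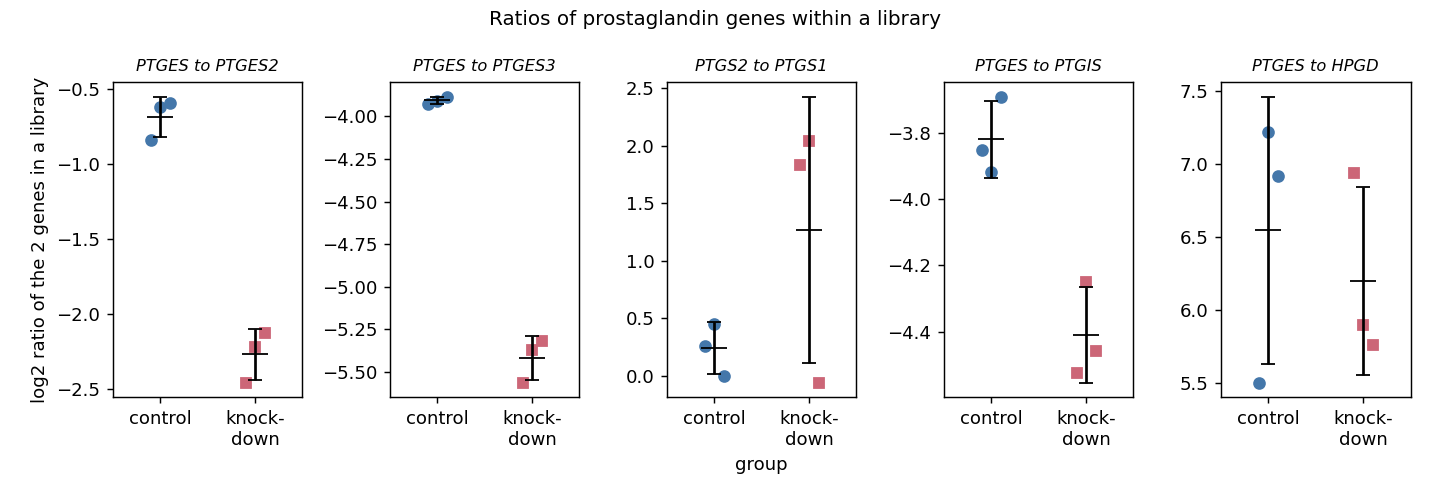
Log2 ratio of 2 prostaglandin genes within each library (vertical axis, scaled separately in each panel and not from 0), with control libraries as circles, knockdown libraries as squares, and mean ± SD in black. The 3 panels that set PTGES against PTGES2, PTGES3 and PTGIS show groups apart, whereas the panels with PTGS1 and HPGD show overlap.

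A further 70 genes around the pathway were taken from lists of what each is known to do. The lists were chosen with earlier results of these data known, so their shares of DE genes are descriptions and not tests. Of these, 47 passed the filter, 8 were DE and lower and 1 was DE and higher. The median of their log2 fold changes was -0.16. This is 19.1% DE, beside 11.7% of all genes tested.

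Genes that supply arachidonic acid or restrain its release held 0 DE genes among the 8 tested of 14 with edgeR, beside 11.7% of all genes. DESeq2 likewise called 0. At an unadjusted p under 0.05 in edgeR, 1 was higher and 2 were lower among these 8, beside 55% of all genes. ANXA1, which encodes annexin A1, an inhibitor of phospholipase action, was at 45210 ± 762 (SD, n = 3) normalized counts in control cells, and its log2 fold change was 0.057 (adjusted p = 0.19 by edgeR). MGLL, which encodes the monoacylglycerol lipase, had one of -0.54 (adjusted p = 5.2e-06), just under the cutoff, and DAGLB, a diacylglycerol lipase, one of -0.16 (adjusted p = 0.054). PLA2G6, a calcium-independent phospholipase, had a value of 0.57 (adjusted p = 0.0027), just under the cutoff. With scaling by library size alone, 1 gene of this list was DE and higher. Of the secreted phospholipases, PLA2G2A, PLA2G5 and PLA2G10 were at 0 counts in all libraries and PLA2G3 at 1 count in a single library, whereas PLA2G12A had 712 to 905 counts per library and a log2 fold change of 0.087 (adjusted p = 0.26 by edgeR).

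Among the other synthases, 4 of 7 genes were tested. All 4 had a negative log2 fold change with an adjusted p under 0.05, which 48.3% of all genes reached in either direction. Only AKR1C3 passed the fold change cutoff too, beside 11.7% DE among all genes tested. AKR1C3, an aldo-keto reductase of prostaglandin F formation, had 28.4, 32.7 and 11.4 normalized counts in control and 12.7, 9.71 and 11.4 in knockdown libraries. The groups overlapped, and although edgeR gave -1.08 on the log2 scale (adjusted p = 0.027), the call was lost with DESeq2 (adjusted p = 0.064) and without any single library other than control 3 (adjusted p by edgeR up to 0.11). AKR1B1, CBR1 and PRXL2B, which encode further enzymes of prostaglandin F2α formation, had values of -0.18, -0.22 and -0.33.

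Transport and the later steps of breakdown had 6 of 6 genes tested and 1 DE, beside 11.7% of all genes tested. SLCO2A1, which encodes the transporter that takes prostaglandins up for degradation, had 45.4, 54.1 and 31.1 normalized counts in control and 17.8, 21.4 and 19.3 in knockdown libraries. It fell without overlap, and the log2 fold change was -1.15 ± 0.25 (SE, adjusted p = 0.0017 by edgeR). ABCC4, the efflux pump for prostaglandins, was at 5540 ± 335 (SD) normalized counts in control cells with a log2 fold change of -0.24 (adjusted p = 6.3e-04). PTGR1, which reduces the products of HPGD, had a value of -0.18 (adjusted p = 0.0017) and its relative PTGR3 one of -0.013 (adjusted p = 0.82).

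Of the other receptors and nuclear receptors for prostaglandin-related lipids, 6 of 9 were tested. Of these, 2 were DE and lower, beside 6.43% of all genes tested. PPARG, a nuclear receptor that binds the prostaglandin J2 series, had 61.5, 50.7 and 51.8 normalized counts in control and 35.6, 30.1 and 32.9 in knockdown libraries. Its log2 fold change was -0.73 (adjusted p = 0.0041 by edgeR). For TBXA2R, the thromboxane receptor, it was -0.67 (adjusted p = 0.017), and this call was lost with DESeq2 (adjusted p = 0.058) and without control library 3 (0.074) or knockdown library 2 (0.084). PTGFRN, which encodes a membrane protein that restrains ligand binding to FP, was higher like PTGFR and under the cutoff (0.40, adjusted p = 9.2e-05). PPARD was lower under the cutoff (-0.27). PTGER3, which encodes EP3, a prostaglandin E2 receptor that lowers cyclic AMP, had 16.1, 20.3 and 7.25 normalized counts in control and 23.7, 18.5 and 32.9 in knockdown libraries. These groups overlapped (0.77, adjusted p = 0.079 by edgeR).

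In the lipoxygenase branch, which competes for arachidonic acid, 2 of 8 genes were tested. ALOX15, which encodes the 15-lipoxygenase, had 275, 199 and 225 normalized counts in control and 49.2, 52.4 and 81.7 in knockdown libraries. The groups were well apart, and the log2 fold change was -1.96 ± 0.18 (SE, adjusted p = 1.3e-06 by edgeR). LTA4H, the leukotriene A4 hydrolase, was lower by less than the cutoff (-0.26), and ALOX5AP, at 7.45 ± 1.93 (SD) normalized counts in control cells, did not pass the filter.

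Among 10 inducers and regulators of PTGS2 and PTGES, 8 were tested and 3 were DE, beside 11.7% of all genes tested. IL1R1, the receptor through which interleukin-1 induces both enzymes, fell from 8053, 8301 and 7696 to 3190, 3220 and 3364 normalized counts. Its log2 fold change of -1.30 had an SE of 0.041 (adjusted p = 1.2e-10 by edgeR). CEBPB, a transcription factor of the PTGS2 promoter, fell by 0.73 on the log2 scale (adjusted p = 4.0e-05), and by 0.58 without control library 1, under the cutoff. EGR1 rose, and was the only DE gene of the 70 that did (2 with scaling by library size alone). It went from 236, 232 and 272 to 519, 515 and 456 normalized counts, or by 1.01 on the log2 scale (SE 0.085, adjusted p = 6.6e-07 by edgeR). The RNA of EGR1 was higher and that of PTGES lower in knockdown libraries, and a link between the 2 was not tested. RELA and ELAVL1, which encode a subunit of NF-κB and an RNA-binding protein that stabilises PTGS2 mRNA, had values of 0.086 and 0.077 (adjusted p = 0.078 and 0.084). The interleukins themselves were at low counts, with 9.34 ± 5.09 normalized counts for IL1A and 7.42 ± 3.62 for IL1B (SD) in control cells, and TNF was at 0 in all libraries.

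Of 10 genes known to respond to cyclic AMP, the second messenger of EP2 and EP4, 9 were tested. By edgeR or by DESeq2, 0 were DE, beside 11.7% of all genes by edgeR. At an unadjusted p under 0.05 in edgeR, 1 was higher and 2 were lower, beside 55% of all genes. At an adjusted p under 0.05 alone, 2 of the 9 were called, both lower, beside 48.3% of all genes. These were PDE4B (-0.57, adjusted p = 0.0015 by edgeR), just under the fold change cutoff, and PDE4D (-0.47, adjusted p = 2.9e-04). PDE4D encodes a phosphodiesterase that degrades cyclic AMP. CREM and PER1 had log2 fold changes of 0.022 (adjusted p = 0.80) and -0.058 (adjusted p = 0.53).

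Of 6 genes linked to prostaglandin E2 in endometriosis, 4 were tested. STAR, which brings cholesterol into mitochondria for steroid synthesis, fell from 171, 185 and 164 to 61.9, 56.3 and 48.8 normalized counts. Its log2 fold change was -1.62 ± 0.13 (SE, adjusted p = 4.3e-07 by edgeR), with no overlap. VEGFA, the angiogenic growth factor, was higher under the cutoff (0.46, adjusted p = 3.9e-06), and FGF2 had a value of -0.10 (adjusted p = 0.18). CYP19A1, which encodes aromatase, and its regulator NR5A1 were at 0 counts in all libraries.

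**Figure D4:**
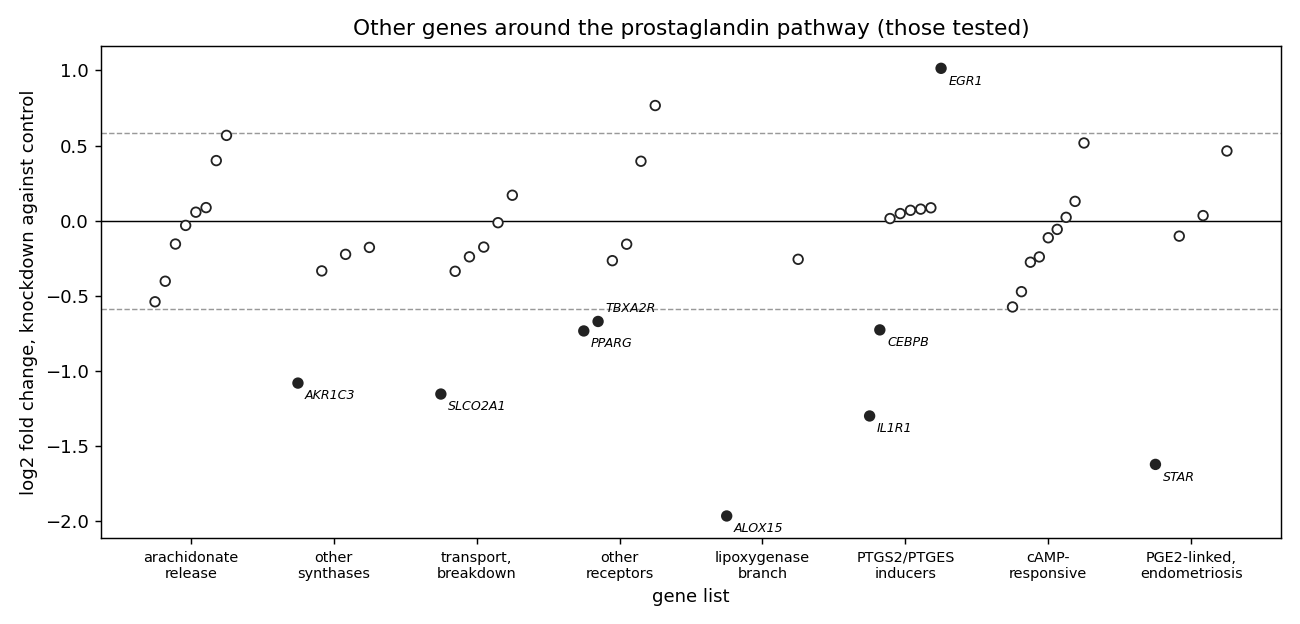
Log2 fold change of knockdown against control (vertical axis) of the 47 tested genes around the prostaglandin pathway, by list, with DE genes filled and named and dashed lines at the fold change cutoff of 1.5. The 8 filled points below 0 reach from -0.67 for TBXA2R to -1.96 for ALOX15, and EGR1 (1.01) is the only filled point above 0.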

How the data were processed

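RNA-sequencing libraries of poly-A RNA, which the study calls biological replicates, 3 per group, were aligned by the authors with STAR 2.7.6a to GRCh38.p13 with GENCODE v36, keeping reads that map to a single place. The authors deposited raw read pair counts per gene, without normalization, for either strand and both. The column opposite to read 1 was used, since it held 94% of stranded counts. Identifiers were paired with symbols for 60419 of 60660 genes. Positions and lengths come from GENCODE v44 on GRCh38, a later release than that of the counts.

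Genes were filtered with filterByExpr (minimum count 10), normalized by TMM and tested with edgeR 4.0.16 in R 4.3.3 (quasi-likelihood, condition as the only term, Benjamini-Hochberg over 15155 genes). DESeq2 1.42.0, the tool of the study, was an alternative, and the steps were tested on simulated data. Other alternatives were other size factors, other filters on low counts, unstranded counts, a replicate block and leaving out each library. Standard errors were taken from the coefficient and its F value. Log2 ratios used a prior count of 2. The prostaglandin genes and the lists were chosen with earlier results of these data known. The genes named are the 10 prostaglandin genes, LINC01133, marker genes, and of each list the DE genes and the 3 with the highest mean count. Some further genes, among them PLA2G6, PTGER3, PDE4B, PLA2G12A, PLA2G3, PLA2G2A, PLA2G5, PLA2G10, IL1A, IL1B, TNF, CYP19A1 and NR5A1, were named after their values were seen.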

Additional observations from a re-analysis of the deposited data

Results flagged for a closer look

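Outside the gene counts, the share of uniquely mapped reads that fell outside annotated genes was 4.81% to 5.22% in knockdown and 4.38% to 4.74% in control libraries, so the lowest knockdown library (4.81%) lay above all control libraries. Outliers within a group were not tested for, since each group holds 3 libraries.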

How the results depend on the processing

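PTGES and PTGIS were DE in the same direction under each alternative, with log2 fold changes from -1.87 to -1.73 and from -1.29 to -1.16. For the tested prostaglandin genes, LINC01133 and the tested list genes named as DE or for their high mean count, 480 log2 fold changes were recomputed. Of these, 459 kept their direction and call. The list genes named after their values were seen, such as PLA2G6, were not among them. With no filter on low counts, where 1963 of 29200 genes were DE, 4 prostaglandin genes were DE and lower, PTGS1 and HPGD being added. An adjusted p under 0.05 alone was reached by 48.3% of all genes in the main fit. Of the 8 prostaglandin genes tested, 4 reached it and were lower and 1 higher. Of the 47 list genes tested, 19 reached it and were lower and 4 higher. Without a library, the DE prostaglandin genes were 2 to 3 lower and 0 higher, and the list genes 6 to 9 lower and 1 to 2 higher. List genes DE and higher were 2 with library size alone and 2 with no filter. Log2 fold changes that changed sign were small. For PTGS2 these were 0.0043 with library size alone, 0.038 without control 1, 0.0020 without control 2 and 0.028 without knockdown 3, for PTGR3 0.049 with library size alone and 0.027 without knockdown 1, for CREM -0.034 without control 1 and for PER1 0.0048 with library size alone. The range without a library was -0.20 to 0.038 for PTGS2, -0.040 to 0.027 for PTGR3 and -0.034 to 0.062 for CREM, and the cause was not tested. The difference of the ratio of PTGES to HPGD turned from -0.35 to 0.39 with a prior count of 0.5. Without a library, the differences of the ratios lay between -1.66 and -1.49 for PTGES to PTGES2, -1.56 and -1.44 for PTGES to PTGES3, 0.65 and 1.70 for PTGS2 to PTGS1, -0.67 and -0.53 for PTGES to PTGIS and -0.87 and -0.012 for PTGES to HPGD. Libraries of the same number did not deviate together (correlations -0.015, 0.005 and 0.057), and with the replicate number as a block 2 prostaglandin genes were DE and lower, 0 higher, PTGES at -1.82 and PTGIS at -1.22. Leaving out libraries in the unfiltered fit was chosen after seeing the data. Depth limits PTGS1, PTGS2, PTGER2, PTGER4 and HPGD, with at most 38 counts in a library, and nothing here measures protein or prostaglandins.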
